A study of Mus musculus with 16 samples.

Results

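The genes described here are the ligands and receptors of axon guidance: semaphorins and plexins, netrins with Dcc and the Unc5 receptors, Slits and Robos, and ephrins with Eph receptors. They were chosen by a rule on gene symbols, written with earlier results of these data known, and 67 of the 18193 genes represented on the array matched. The set holds 7 class 3 semaphorins, 13 other semaphorins, 10 plexins, 9 EphA and 4 EphB receptors, 5 ephrin-A and 3 ephrin-B ligands, 9 netrins and netrin receptors, and 7 Slits and Robos. Plxna4os1, counted with the plexins because its symbol shares their prefix, is a transcript antisense to Plxna4 and encodes no receptor. Ephb2 was not analysed here.

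Messenger RNA was measured in the cerebellum and the lung, each taken whole, of C57BL/6J mice at postnatal day 7 that had received dexamethasone, a synthetic glucocorticoid, or its vehicle. Each of the 4 groups had 4 arrays. The sources used here state no dose, schedule, sex or litter, and a p-value therefore reflects only how these particular samples vary. Values are log2 expression values made with RMA, a method that summarises the probes of an Affymetrix array into 1 value per probe set.

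Axon guidance proteins steer growing axons and migrating cells by attraction or repulsion. Semaphorins act through plexins, often with neuropilins as partners, and netrins through Dcc and the Unc5 receptors. Slits act through Robos, and ephrins are membrane-bound ligands of Eph receptor tyrosine kinases. Outside the nervous system the same families take part in blood vessel patterning and in the branching and growth of the lung. In the cerebellum they guide granule cell migration and the wiring of its afferent and efferent fibres.

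Gene lists for each organ followed the labels. The mean level of 6 alveolar epithelium markers was 11.37 to 12.19 on lung arrays and 5.22 to 5.57 on cerebellar arrays. For 6 markers of granule neurons and their progenitors the ranges were 10.55 to 11.32 in the cerebellum and 4.70 to 5.05 in the lung. No pair of arrays was identical. The lowest correlation between arrays of the same organ, 0.946, was that of dexamethasone lung B46 with vehicle lung B14. Xist, a transcript of the inactive X chromosome, differed widely between arrays of the same group. It measured 10.81, 10.79 and 10.86 on dexamethasone lungs B28, B31 and B46, and 11.93 on vehicle lung B14. In the cerebellum it measured 11.40 and 11.28 on dexamethasone B49 and B50, and 11.41 on vehicle B81. The remaining arrays lay at 4.99 to 6.93. High Xist levels were thus more frequent with dexamethasone in both organs, so Xist level and treatment are partly confounded.

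In the lung, dexamethasone was accompanied by lower levels of many of these genes. With limma's moderated test and Benjamini-Hochberg adjustment over all genes, 23 of the 67 fell (34.3%) at an adjusted p under 0.05, and 5 rose (7.46%). Over all genes tested, 15.5% were called lower and 15.7% higher. Calls in either direction took in 28 of the 67 genes (41.8%), beside 31.2% of all genes. All genes include dim ones, while 5 of the 67 had a highest group mean under 6. In the cerebellum, leaving dim genes out raised the share of all genes called from 4.8% to 8.16%. The lung shares given here are not matched for brightness. The median log2 change of the 67 was -0.15, beside 0.05 for all genes. Arrays of the dexamethasone and vehicle groups did not overlap for 26 of the 67, or 38.8%, beside 30.6% of all genes. Among the 28 called genes, 9 changed at least 2-fold, and the levels of these 9 were all lower with dexamethasone. Some of these folds leaned on dexamethasone lung B46, to which array weights gave 0.264, the lowest weight of the 16 arrays. Without B46 the log2 change was -0.98 for Plxnd1 and -1.19 for Slit2. Robo1 and Sema6a, like Plxnd1, then fell less than 2-fold, and all 9 kept their calls. In RNA of a whole organ, fewer cells of a type and less RNA per cell cannot be told apart.

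**Figure D1:**
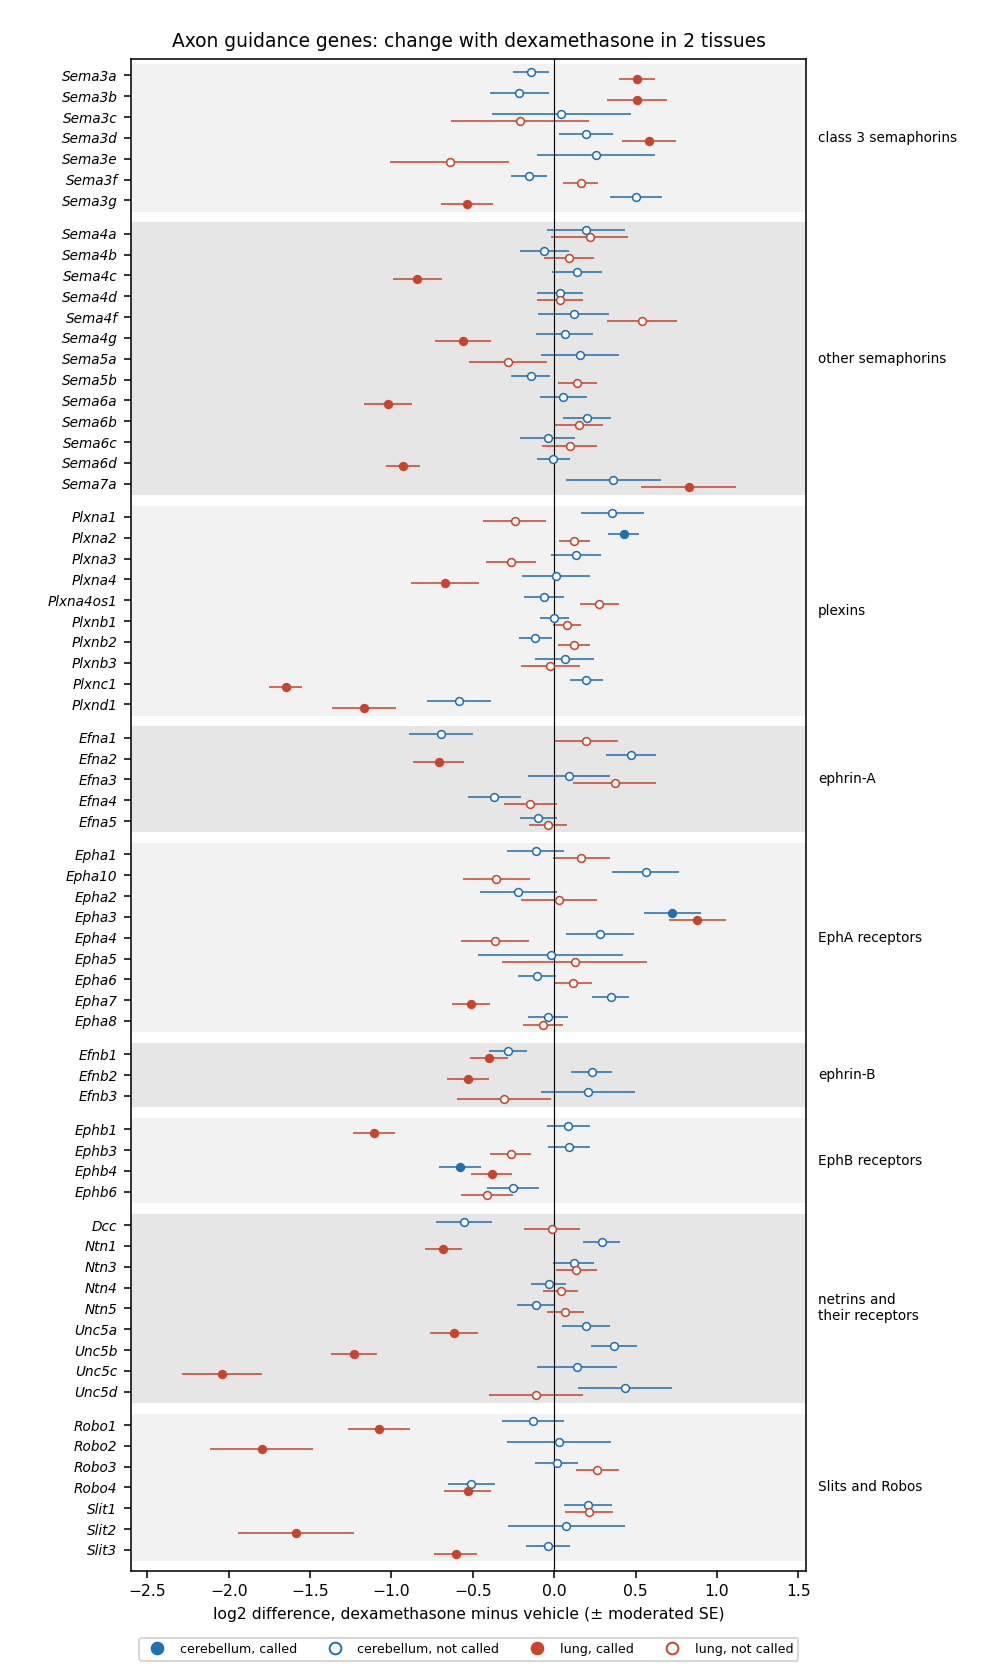
Log2 difference between dexamethasone and vehicle (x axis, ± moderated standard error) for each of the 67 genes, grouped by family, with 4 arrays a group; blue marks the cerebellum, red the lung, and filled points have an adjusted p under 0.05. The filled red points lie mostly left of 0, with Unc5c farthest at -2.04, while 3 blue points are filled.

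Slits are secreted repellents and Robos their receptors. In the lung, 5 of these 7 genes fell, Slit2, Slit3, Robo1, Robo2 and Robo4, and the family's median log2 change was -0.61. Slit2, a ligand, measured 11.96, 11.82, 11.72 and 11.81 in the vehicle lungs (replicates B12, B14, B19 and B22, in this order throughout). In the dexamethasone lungs it measured 10.52, 10.80, 10.60 and 9.04 (replicates B28, B31, B40 and B46, likewise). Every treated array lay below every vehicle array, and B46 lay apart from the other treated arrays. The mean went from 11.83 ± 0.10 to 10.24 ± 0.81 (SD, n = 4), a 3.0-fold fall (log2 change -1.59 ± 0.36, SE; limma adjusted p = 0.0027), and all 3 probe sets of Slit2 fell.

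Robo2, a Slit receptor with a role in neuronal and kidney development, measured 7.38, 7.42, 6.33 and 7.27 in vehicle lungs. With dexamethasone its values were 5.85, 5.85, 5.12 and 4.39. The groups were separate, although vehicle replicate B19 was low. Robo2 fell 3.48-fold, from 7.10 ± 0.52 to 5.30 ± 0.70 (SD, n = 4; log2 change -1.80 ± 0.32, SE; limma adjusted p = 0.000378). The treated values are dim, and RMA compresses changes of dim genes, so a fold of this kind may be understated. Robo1, the other widely expressed Slit receptor, measured 9.16, 9.31, 9.33 and 9.06 in vehicle lungs. It measured 8.39, 8.23, 8.56 and 7.37 in dexamethasone lungs. Again no array of one group reached the other. Robo1 fell 2.11-fold, from 9.22 ± 0.13 to 8.14 ± 0.53 (SD, n = 4; log2 change -1.08 ± 0.19, SE; limma adjusted p = 0.000374). This call rests on 1 of its 3 probe sets, the brightest: the mean of all 3 gave a log2 change of -0.29 (limma adjusted p = 0.211).

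The smaller falls of the family were those of Slit3, a ligand found in mesenchyme and vessels, and Robo4, the Robo of endothelial cells. Slit3 fell 1.52-fold, from 8.30 ± 0.15 to 7.70 ± 0.15 (SD, n = 4; limma adjusted p = 0.00224). Robo4 fell 1.45-fold, from 8.59 ± 0.24 to 8.05 ± 0.08 (SD, n = 4; limma adjusted p = 0.00968). Slit1 and Robo3 did not pass the test, with log2 changes of 0.21 ± 0.15 and 0.27 ± 0.13 (SE). Robo3 was among 5 of the 67 genes, with Epha6, Ntn3, Ntn5 and Plxna4os1, whose highest group mean was under 6.

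Netrins are secreted laminin-related cues, Dcc is their attractive receptor, and the Unc5 proteins mediate repulsion. In the lung 4 of these 9 genes fell, Ntn1, Unc5a, Unc5b and Unc5c, with a family median of -0.11. Unc5c had the most negative log2 change of all 67 genes. Its vehicle values were 10.10, 10.04, 10.07 and 10.12, and its dexamethasone values 8.60, 8.56, 7.94 and 7.06. The vehicle arrays were nearly alike, and the treated ones were spread out well below them. Unc5c fell 4.11-fold, from 10.08 ± 0.03 to 8.04 ± 0.72 (SD, n = 4; log2 change -2.04 ± 0.25, SE; limma adjusted p = 9.43e-06), and both of its probe sets fell.

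Unc5b, the Unc5 receptor known from endothelial cells, measured 8.88, 9.15, 8.86 and 8.99 in vehicle lungs. Its values in dexamethasone lungs were 7.66, 7.93, 7.70 and 7.68. Both groups were tight and far apart, at 8.97 ± 0.13 and 7.74 ± 0.13 (SD, n = 4). Unc5b fell 2.35-fold (log2 change -1.23 ± 0.14, SE; limma adjusted p = 5.06e-06), again on both probe sets. Ntn1, the netrin best known as a guidance cue, fell 1.60-fold, from 8.87 ± 0.22 to 8.19 ± 0.15 (SD, n = 4; limma adjusted p = 0.00022), and the mean of its probe sets gave a log2 change of -0.38 in place of -0.68. Unc5a fell 1.53-fold, from 6.60 ± 0.14 to 5.98 ± 0.24 (SD, n = 4; limma adjusted p = 0.00449). Dcc sat near the bottom of the scale in the lung, at 4.51 ± 0.20 in vehicle and 4.49 ± 0.44 in dexamethasone lungs (SD, n = 4), with a log2 change of -0.01 ± 0.17 (SE; limma adjusted p = 0.967).

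Class 3 semaphorins are secreted, and in the main fit they were the family in which most called genes were higher with dexamethasone. Of these 7, 3 rose, Sema3a, Sema3b and Sema3d, and Sema3g fell, with a median log2 change of 0.16. With lung arrays fitted alone, Sema3b lost its call and Sema3e was called lower, so rises were then no longer the majority. Sema3a, the classical collapsing factor of growth cones, measured 9.32, 9.33, 9.42 and 9.45 in vehicle lungs. It measured 9.97, 9.90, 10.07 and 9.62 in dexamethasone lungs, above every vehicle array. Sema3a rose 1.43-fold, from 9.38 ± 0.07 to 9.89 ± 0.20 (SD, n = 4; log2 change 0.51 ± 0.11, SE; limma adjusted p = 0.00195), on all 3 of its probe sets.

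Sema3d, another secreted semaphorin with a role in vessel and heart patterning, measured 7.36, 6.79, 7.23 and 7.24 in vehicle lungs. Its dexamethasone values were 7.82, 7.61, 7.89 and 7.64. These ranges did not overlap. Sema3d rose 1.5-fold, from 7.16 ± 0.25 to 7.74 ± 0.14 (SD, n = 4; limma adjusted p = 0.0122), with a log2 change of 0.58, or 0.38 as the mean of its probe sets. Sema3b measured 8.02, 8.23, 8.11 and 8.14 in vehicle lungs, and 8.65, 9.05, 8.72 and 8.12 with dexamethasone. Replicate B46 lay inside the vehicle range. Sema3b rose 1.42-fold, from 8.12 ± 0.09 to 8.63 ± 0.38 (SD, n = 4; limma adjusted p = 0.042), a call lost in 10 of 16 other settings, with an adjusted p of up to 0.139 (without dexamethasone replicate B31).

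Sema3g, a semaphorin of endothelial cells, fell 1.45-fold in the lung, from 9.93 ± 0.16 to 9.39 ± 0.09 (SD, n = 4; limma adjusted p = 0.0178, and 0.0584 without vehicle replicate B14). Sema3f, on average the brightest of the class over the 16 arrays, had means of 10.93 in vehicle and 11.09 in dexamethasone lungs, a log2 change of 0.16 ± 0.11 (SE; limma adjusted p = 0.283). Sema3e, whose vehicle lung mean was 10.44 ± 0.12 (SD, n = 4), had separate arrays, at 10.30 to 10.59 in vehicle and 9.54 to 10.02 in dexamethasone lungs. Its log2 change was -0.64 ± 0.36 (SE; limma adjusted p = 0.204). With lung arrays fitted alone, which leaves out its wide spread in the cerebellum, the adjusted p was 0.0032 and Sema3e was called lower.

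The other semaphorins are mostly bound to the membrane. Of these 13, 4 fell in the lung, Sema4c, Sema4g, Sema6a and Sema6d, and Sema7a rose. Among those not called, a dimmer probe set rose for Sema4a, Sema4f and Sema4d (log2 change 0.87, 0.67 and 0.41, limma adjusted p = 0.00435, 0.00895 and 0.0141). Sema4a was called higher as the mean of its probe sets (limma adjusted p = 0.0447), and Sema4f in 5 of 16 other settings. Sema5a was called lower with lung arrays fitted alone (limma adjusted p = 0.0307). Sema6a fell 2.03-fold, from 8.10 ± 0.14 to 7.08 ± 0.30 (SD, n = 4; limma adjusted p = 5.21e-05), with a log2 change of -1.02 that was -0.46 as the mean of its 3 probe sets. Sema6d, the brightest of the group, fell 1.90-fold, from 11.19 ± 0.12 to 10.26 ± 0.20 (SD, n = 4; limma adjusted p = 4.07e-06). Both are transmembrane semaphorins of class 6, whose receptors are A-type plexins. Sema4c fell 1.79-fold, from 8.53 ± 0.21 to 7.69 ± 0.20 (SD, n = 4; limma adjusted p = 0.00045). Sema4g was dim, at 5.78 ± 0.19 and 5.22 ± 0.43 (SD, n = 4). It fell 1.47-fold (limma adjusted p = 0.0212), and the call was lost with lung arrays fitted alone (adjusted p = 0.0649) and without replicate B31, B12 or B14 (0.0534, 0.0565 and 0.0627).

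Sema7a, the semaphorin anchored in the membrane by a lipid, measured 8.89, 9.05, 8.83 and 8.97 in vehicle lungs. Its dexamethasone values were 9.67, 9.49, 9.01 and 10.88. The treated arrays were spread widely, with B46 highest and B40 inside the vehicle range. Sema7a rose 1.78-fold, from 8.93 ± 0.10 to 9.76 ± 0.79 (SD, n = 4; log2 change 0.83 ± 0.29, SE; limma adjusted p = 0.0399). Without B46 the log2 change was 0.46 with an adjusted p of 0.111, and the call was lost in 10 of 16 other settings.

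Plexins are the receptors of semaphorins. Of the 10 genes grouped here, 3 fell in the lung, Plxnc1, Plxnd1 and Plxna4, and the median log2 change was -0.13. Plxnc1, the receptor of Sema7a, measured 9.60, 9.51, 9.46 and 9.52 in vehicle lungs. It measured 7.94, 8.12, 7.61 and 7.81 in dexamethasone lungs. Both groups were narrow and lay more than a log2 unit apart. Plxnc1 fell 3.14-fold, from 9.52 ± 0.06 to 7.87 ± 0.21 (SD, n = 4; log2 change -1.65 ± 0.10, SE; limma adjusted p = 1.12e-08), the smallest adjusted p among the lung falls. Of its 6 probe sets 4 fell, and the mean of all 6 gave a log2 change of -0.94.

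Plxnd1, a plexin of endothelial cells that binds Sema3e, measured 10.33, 10.41, 10.05 and 10.53 in vehicle lungs. Its values with dexamethasone were 9.13, 9.38, 9.54 and 8.58. No treated array reached a vehicle array. Plxnd1 fell 2.25-fold, from 10.33 ± 0.21 to 9.16 ± 0.42 (SD, n = 4; log2 change -1.17 ± 0.20, SE; limma adjusted p = 0.000239). Plxna4, which pairs with neuropilin to receive Sema3a, fell 1.59-fold, from 9.09 ± 0.18 to 8.42 ± 0.14 (SD, n = 4; limma adjusted p = 0.0217). That call was lost as the mean of its probe sets (log2 change -0.27, adjusted p = 0.174) and without replicate B14, B22 or B40 (0.0576, 0.0569 and 0.0546). Plxnb2, the brightest plexin, had means of 11.02 and 11.14 in vehicle and dexamethasone lungs (log2 change 0.12 ± 0.10, SE; limma adjusted p = 0.393).

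Ephrins and Eph receptors signal at cell contacts, in both directions. Among B-type members, 2 of 3 ephrins and 2 of 4 receptors fell in the lung, and the median log2 change was -0.40 for the ephrins and -0.40 for the receptors. Ephb1 measured 6.61, 6.39, 6.87 and 6.72 in vehicle lungs and 5.20, 5.86, 5.40 and 5.68 in dexamethasone lungs, with no overlap. It fell 2.16-fold, from 6.64 ± 0.20 to 5.54 ± 0.29 (SD, n = 4; log2 change -1.11 ± 0.13, SE; limma adjusted p = 7.21e-06). Ephb4, the receptor that marks venous endothelium, measured 9.05, 9.56, 9.61 and 9.35 in vehicle lungs. Its dexamethasone values were 8.84, 9.06, 9.06 and 9.08. The lowest vehicle array, B12, lay among the treated ones. Ephb4 fell 1.31-fold, from 9.39 ± 0.26 to 9.01 ± 0.11 (SD, n = 4; limma adjusted p = 0.0289). The call was lost with lung arrays fitted alone (adjusted p = 0.0589) and without B28, B14 or B19 (0.0861, 0.0915 and 0.0926).

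Efnb2, the arterial partner of Ephb4, fell 1.44-fold, from 11.83 ± 0.13 to 11.31 ± 0.25 (SD, n = 4; limma adjusted p = 0.00451), with a log2 change of -0.53, or -0.30 as the mean of its probe sets. Efnb1 fell 1.32-fold, from 9.73 ± 0.15 to 9.33 ± 0.14 (SD, n = 4; limma adjusted p = 0.0142), and lost the call as the mean of its probe sets (log2 change -0.23, adjusted p = 0.12). Ephb3, on average the brightest EphB receptor, had a log2 change of -0.27 ± 0.13 (SE; limma adjusted p = 0.126).

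Among A-type members, 1 of 5 ephrins fell in the lung, and of 9 receptors 1 rose and 1 fell. Their medians were -0.04 and 0.03. Epha3, an ephrin-A receptor of mesenchymal and neural cells, measured 9.01, 8.78, 9.11 and 8.94 in vehicle lungs. It measured 9.96, 10.00, 10.08 and 9.32 with dexamethasone, all above the vehicle arrays and with B46 lowest. Epha3 rose 1.84-fold, from 8.96 ± 0.14 to 9.84 ± 0.35 (SD, n = 4; log2 change 0.88 ± 0.18, SE; limma adjusted p = 0.00101), on 3 of its 4 probe sets. Epha7 fell 1.42-fold, from 8.56 ± 0.22 to 8.05 ± 0.20 (SD, n = 4; limma adjusted p = 0.00261), with overlapping arrays. Efna2 fell 1.64-fold, from 7.84 ± 0.15 to 7.13 ± 0.39 (SD, n = 4; limma adjusted p = 0.00227), and lost the call as the mean of its probe sets (log2 change -0.26, adjusted p = 0.0548). Efna5, the brightest ephrin-A, had a log2 change of -0.04 ± 0.12 (SE; limma adjusted p = 0.846).

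**Figure D2:**
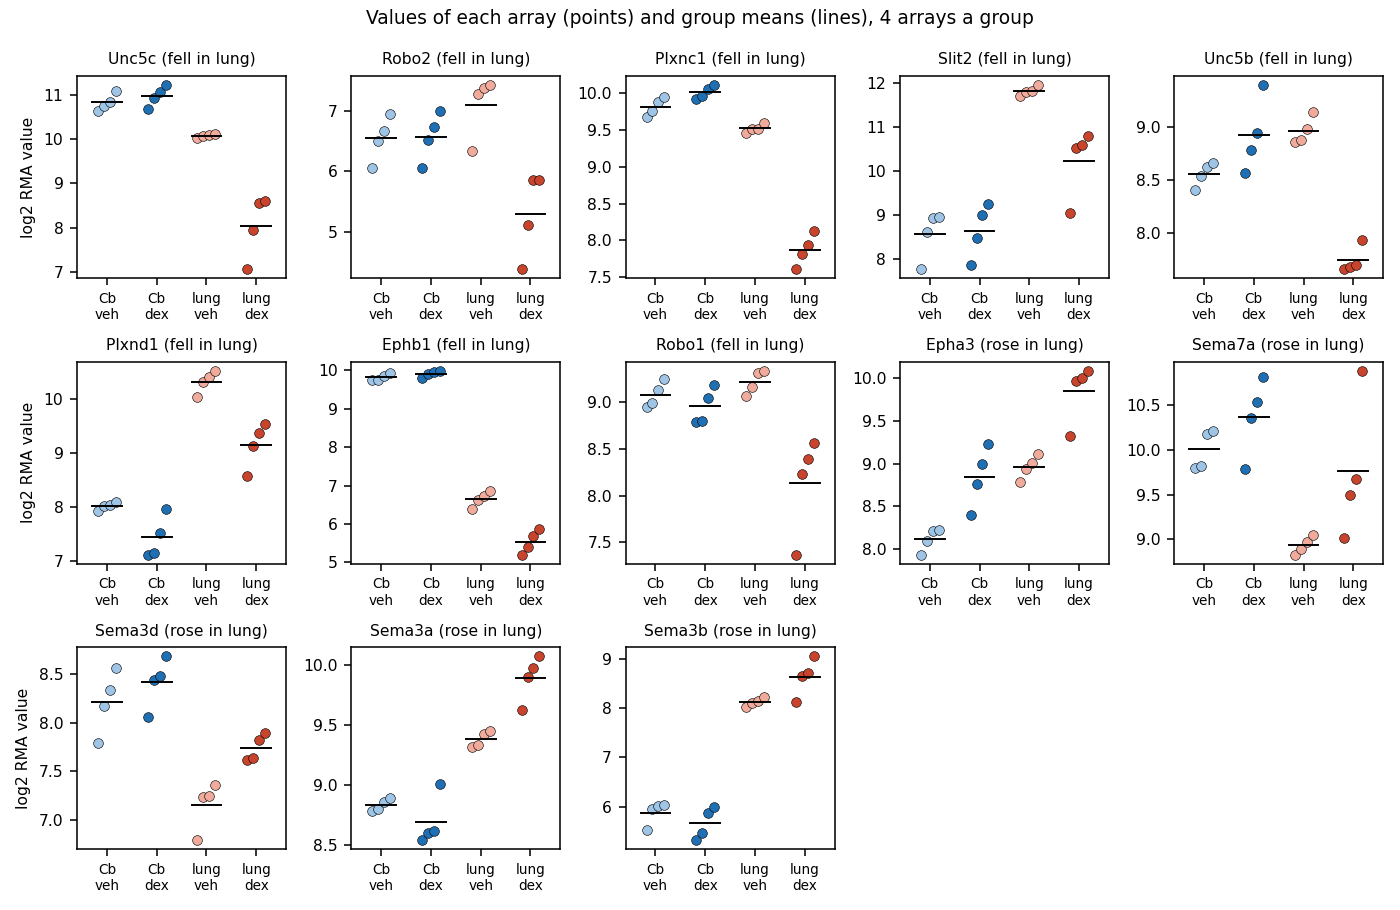
Log2 RMA value (y axis) of each of the 4 arrays of every group (points; lines are group means) for the 8 largest falls and the 5 rises in the lung, with cerebellum in blue, lung in red and dexamethasone in the darker shade. Each of the 8 genes that fell has its 4 treated lung arrays below the 4 vehicle lung arrays, whereas Sema7a and Sema3b have treated arrays inside the vehicle range.

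Genes that act beside these ligands and receptors were described from lists of co-receptors and intracellular effectors. Of 11 co-receptors, 2 rose in the lung and 1 fell, with a median log2 change of 0.01. L1cam, a cell adhesion molecule of axons, rose 1.91-fold, Flrt3, a ligand of Unc5 receptors, rose 1.45-fold, and Neo1, a relative of Dcc, fell 1.44-fold. Of 22 effectors measured, 11 fell and the other 11 did not pass the test, with a median of -0.30. Of all genes, 15.5% were called lower in the lung and 15.7% higher. Srgap1, an intracellular partner of Robos, fell 3.35-fold, and Srgap2 fell 1.46-fold. Dpysl3 and Dpysl2, collapsin response mediator proteins, fell 2.51-fold and 1.23-fold. Fyn, a kinase downstream of Dcc and plexins, fell 2.19-fold. Tiam1 and Trio, activators of Rac, fell 2.0-fold and 1.22-fold. The adaptor Nck2 fell 1.63-fold, and the actin regulators Ablim1, Enah and Mical1 fell 1.72-fold, 1.5-fold and 1.37-fold.

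Markers of cell types and of dividing cells also differed between the lung groups, where 15.5% of all genes were called lower and 15.7% higher. All 5 proliferation genes fell (median log2 change -2.49), and their mean level was 10.02 to 10.52 on vehicle and 7.21 to 7.93 on dexamethasone arrays. Of 6 mesenchyme markers 5 fell, with mean levels of 12.20 to 12.48 and 11.20 to 11.58. Of 10 endothelium markers 5 fell, with mean levels of 10.53 to 10.77 and 10.04 to 10.30. Leukocyte markers were higher, with 4 of 6 up and mean levels of 11.18 to 11.46 and 11.95 to 12.48, and so were 4 of 6 alveolar epithelium markers. The log2 difference between the 3′ and 5′ control probe sets of Gapdh, a sign of RNA quality, was 0.446 to 0.708 on dexamethasone and 0.84 to 1.044 on vehicle lung arrays. For the control probe sets of actin the ranges overlapped, at 0.451 to 0.642 on dexamethasone and 0.611 to 0.667 on vehicle lung arrays. The part of these differences in the changes of the guidance genes was not tested.

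Promoter sequence was read for the genes that fell together in the lung, from RefSeq windows of 300 bases, 250 before and 50 after the transcript start (GRCm38.p6). A window was listed for 56 of the 67 genes. The 100 bases before the start are shown for Unc5c (chr3:141465464-141465563, plus strand), Plxnc1 (chr10:94944846-94944945, minus strand) and Slit2 (chr5:47983055-47983154, plus strand), which fell at least 3-fold and have a single listed window.
Unc5c: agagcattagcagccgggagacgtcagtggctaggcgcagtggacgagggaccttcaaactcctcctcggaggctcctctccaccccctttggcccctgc
Plxnc1: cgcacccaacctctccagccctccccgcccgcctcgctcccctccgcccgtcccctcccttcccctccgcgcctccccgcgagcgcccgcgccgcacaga
Slit2: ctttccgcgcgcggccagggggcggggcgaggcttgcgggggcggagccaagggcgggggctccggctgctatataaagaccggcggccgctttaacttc
Of these 100 bases, 64 were G or C for Unc5c, 80 for Plxnc1 and 72 for Slit2. They held 5, 14 and 13 CpG dinucleotides. G and C made up a median of 64.2% of the windows of the 56 genes and 52.7% of all windows.

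The glucocorticoid receptor binds DNA as a dimer, to AGAACA and its reverse complement TGTTCT separated by 3 bases. The 6-base motif AGAACA, on either strand, was found in the windows of 5 of the 56 genes (8.93%), beside 5750 of 27025 genes with a window (21.3%). Among genes with a window it was in 2 of the 20 that fell in the lung, Plxnd1 and Sema6d, and in 0 of the 4 that rose. The palindrome itself was in no window of the 56 genes and in those of 3 genes of all. A match is a description of these letters and not of binding, and the windows leave out distant elements. The motif is mostly A and T, while the windows of the 56 genes held more G and C (median 64.2%, beside 52.7% of all windows). The part of base composition in the lower share of the 56 genes was not tested. The genes they are set beside were not limited to those on the array. The stretches with a match, in capitals, are shown for Plxnd1 (chr6:115995156-115995255, minus strand) and Sema6d (chr2:124653385-124653484, plus strand).
Plxnd1: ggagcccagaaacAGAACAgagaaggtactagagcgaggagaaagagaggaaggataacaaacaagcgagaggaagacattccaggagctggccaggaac
Sema6d: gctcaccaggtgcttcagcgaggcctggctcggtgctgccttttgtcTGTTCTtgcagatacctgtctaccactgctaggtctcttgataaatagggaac
The stretch of Sema6d comes from 1 of its 2 listed windows. Bases -250 to -151 from the start are shown for Plxnd1, with the motif at -237, and bases -196 to -97 for Sema6d, with the motif at -149.

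In the cerebellum few of these genes were called. Epha3 and Plxna2 rose, Ephb4 fell, and together they made 3 of 67 genes (4.48%), beside 4.8% of all genes. Higher were 2 (2.99%), beside 2.84% of all genes, and lower was 1 (1.49%), beside 1.97%. The median log2 change was 0.06, and 0.01 for all genes. For 8 of the 67 (11.9%) the groups' arrays did not overlap, beside 12.6% of all genes. These shares were near those of the array as a whole. At an unadjusted p under 0.05, 8 of the 67 were higher (11.9%) and 7 lower (10.4%), beside 9.51% and 7.48% of all genes.

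Epha3 measured 8.22, 8.10, 7.94 and 8.23 in vehicle cerebella (replicates B78, B79, B80 and B81, in this order throughout). In dexamethasone cerebella it measured 8.40, 9.00, 8.76 and 9.23 (replicates B39, B49, B50 and B52, likewise). The groups did not overlap, with B39 close to the vehicle arrays. Epha3 rose 1.65-fold, from 8.12 ± 0.14 to 8.85 ± 0.36 (SD, n = 4; log2 change 0.73 ± 0.18, SE; limma adjusted p = 0.0232). The call was lost as the mean of its 4 probe sets (log2 change 0.54, adjusted p = 0.067) and without B49, B52, B79 or B80 (0.0702, 0.0739, 0.0636 and 0.0735).

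Plxna2, a receptor of class 6 semaphorins in granule cells, measured 11.05, 10.88, 10.94 and 10.88 in vehicle cerebella. Its dexamethasone values were 11.41, 11.26, 11.38 and 11.39, all above the vehicle range. Plxna2 rose 1.34-fold, from 10.93 ± 0.08 to 11.36 ± 0.07 (SD, n = 4; log2 change 0.43 ± 0.10, SE; limma adjusted p = 0.0147), and it kept its call in every setting tried. In the lung its values overlapped between the groups, at 10.27, 10.34, 10.02 and 10.32 in vehicle and 10.26, 10.35, 10.26 and 10.58 in dexamethasone arrays. Ephb4 measured 6.60, 6.97, 6.82 and 6.67 in vehicle cerebella and 6.41, 6.15, 6.12 and 6.05 in dexamethasone cerebella, again without overlap. It fell 1.49-fold, from 6.76 ± 0.17 to 6.18 ± 0.16 (SD, n = 4; log2 change -0.58 ± 0.13, SE; limma adjusted p = 0.0137, and 0.0526 without B79). Epha3 and Ephb4 were the 2 genes called in both organs, and each had the same direction in both.

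For the families without a call in the cerebellum, genes at an unadjusted p under 0.05 were counted as well. Of all genes, 9.51% reached that level as higher and 7.48% as lower. Limma called 0 of 7 class 3 semaphorins there, with 1 higher at that level, and 0 of 13 other semaphorins, with none at that level. It called 0 of 5 ephrin-A genes, with 1 higher and 2 lower, and 0 of 3 ephrin-B genes, with 1 lower. Among the 9 netrin genes 0 were called, with 2 higher and 1 lower, and among the 7 Slits and Robos 0, with 1 lower. Dcc, the netrin receptor of growing axons, went from 10.53 ± 0.17 to 9.98 ± 0.10 (SD, n = 4), a log2 change of -0.56 ± 0.17 (SE; limma adjusted p = 0.0778) with separate arrays. Efna1 and Robo4, both known from endothelium, had log2 changes of -0.70 ± 0.20 and -0.51 ± 0.14 (SE; limma adjusted p = 0.0512 and 0.0545). Of the brightest members of their families, Sema3f had a log2 change of -0.15 ± 0.11, Plxnb2 of -0.12 ± 0.10, Efna5 of -0.10 ± 0.12 and Ephb3 of 0.09 ± 0.13 (SE).

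Endothelium markers differed in the cerebellum as well: 5 of 10 fell and 1 rose, with mean levels of 7.56 to 7.81 on vehicle and 7.06 to 7.19 on dexamethasone arrays. Mesenchyme markers had 3 of 6 lower, with mean levels of 8.93 to 9.09 and 8.41 to 8.50, and 5 of 6 leukocyte markers fell. Of 5 oligodendrocyte markers 3 rose, with a median log2 change of 0.45 and mean levels of 10.23 to 11.22 on vehicle and 11.25 to 11.78 on dexamethasone arrays. Granule cell markers had 1 of 6 higher, with a median log2 change of 0.08. Beside these counts, 1.97% of all genes were called lower in the cerebellum and 2.84% higher. The part of these lists in the changes of Epha3, Plxna2 and Ephb4 was not tested. Among 22 effectors, Nck1, an adaptor, rose by 0.97 on the log2 scale and the other 21 did not pass the test. Limma called 0 of the 11 co-receptors there, with 1 higher at an unadjusted p under 0.05.

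The effect of dexamethasone differed between the organs for 20 of the 67 genes, by the contrast of lung change minus cerebellum change in the same fit. The lung change was the lower for 18 (26.9%), beside 11.5% of all genes, and the higher for 2 (2.99%), beside 9.85%. These shares, too, are not matched for brightness. Of the 23 genes that fell in the lung, 17 were among these 18. The differences that were farthest below 0 were those of Unc5c, at -2.18 ± 0.35, Plxnc1, at -1.85 ± 0.14, Robo2, at -1.83 ± 0.45, and Slit2, at -1.66 ± 0.51 (log2, SE). Slit2 passed narrowly (adjusted p = 0.0272, and up to 0.0569 without single arrays, B12, B39, B50 or B79). Unc5b followed at -1.60 ± 0.20 and Ephb1 at -1.20 ± 0.18. In the cerebellum, Unc5c measured 10.86, 11.11, 10.76 and 10.64 in vehicle and 10.70, 11.08, 10.95 and 11.23 in dexamethasone arrays. Plxnc1 measured 9.76, 9.68, 9.88 and 9.95, and 9.92, 10.06, 10.11 and 9.97. Both genes thus had overlapping cerebellar groups while their lung groups were separate.

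For the remaining lung falls, Plxnd1, Robo4, Efnb1, Ephb4, Plxna4 and Sema4g, the difference between organs did not pass the test. Plxnd1 had a log2 change of -0.58 ± 0.20 in the cerebellum (SE, limma adjusted p = 0.11). The interval of a difference that misses the threshold still allows unequal effects. The lung change was above the cerebellar one for Sema3a, by 0.65 ± 0.16, and for Efna1, by 0.89 ± 0.28 (log2, SE). Epha10, called in neither organ, had changes of 0.56 ± 0.20 in the cerebellum and -0.36 ± 0.20 in the lung, a difference of -0.92 ± 0.29 (log2, SE; limma adjusted p = 0.0325). Sema3g, called lower in the lung only, had changes of 0.50 ± 0.16 in the cerebellum and -0.54 ± 0.16 in the lung (log2, SE). Of 23 other settings, difference calls were lost in 8 for Efna1 (adjusted p up to 0.0969), 10 for Epha10 (up to 0.0705) and 14 for Slit3 (up to 0.0843). As the mean of probe sets they were also lost for Robo1 (difference -0.35, adjusted p = 0.335) and Sema6a (difference -0.51, adjusted p = 0.0838). By that summary the difference was -1.06 for Plxnc1, -0.56 for Efna2, -0.51 for Ntn1 and -0.46 for Efnb2, all still called.

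Between the vehicle organs, 53 of the 67 genes differed. In the lung 23 were higher (34.3%), beside 28% of all genes, and 30 were lower (44.8%), beside 29.7%, again without matching for brightness. By the brightest probe set Dcc had the widest gap, at 10.53 ± 0.17 in cerebellum and 4.51 ± 0.20 in lung (SD, n = 4), a 65.1-fold lower level in the lung (limma adjusted p = 1.22e-14). The mean of the probe sets of Dcc gave a log2 difference of -4.14, smaller in size than the 4.49 of Sema3g from its single probe set. Epha5 was 16.1-fold, Sema4g 12.3-fold, Ephb1 9.08-fold, Unc5d 8.32-fold and Efnb3 6.10-fold lower in the lung. Several of these lung means were near the bottom of the scale, which limits the fold, and for Epha5 the mean of its probe sets gave a log2 difference of -2.58 in place of -4.00. The genes farthest above the cerebellum were Sema3c, 27.6-fold higher in the lung at 11.90 ± 0.15 against 7.12 ± 0.95 (SD, n = 4; limma adjusted p = 3.1e-08), and Sema3g, 22.5-fold higher. Sema3e was 16.6-fold, Efna1 11.3-fold, Slit2 9.58-fold and Ephb4 6.19-fold higher in the lung. As the mean of probe sets, the log2 differences of Sema3c and Sema3e were 3.74 and 3.26 in place of 4.79 and 4.05.

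By family, with differences between families not tested, the calls between the vehicle organs were these. Of 7 class 3 semaphorins, 5 were higher in the lung and Sema3d was lower, with a median log2 difference of 2.24. Among Slits and Robos 4 of 7 were higher in the lung, Slit2, Slit3, Robo3 and Robo4. Of the 13 other semaphorins, 9 were lower in the lung and 2 higher, with a median of -0.61. Among the netrin genes 5 were lower in the lung and 1 higher, and among plexins 5 and 2.

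**Figure D3:**
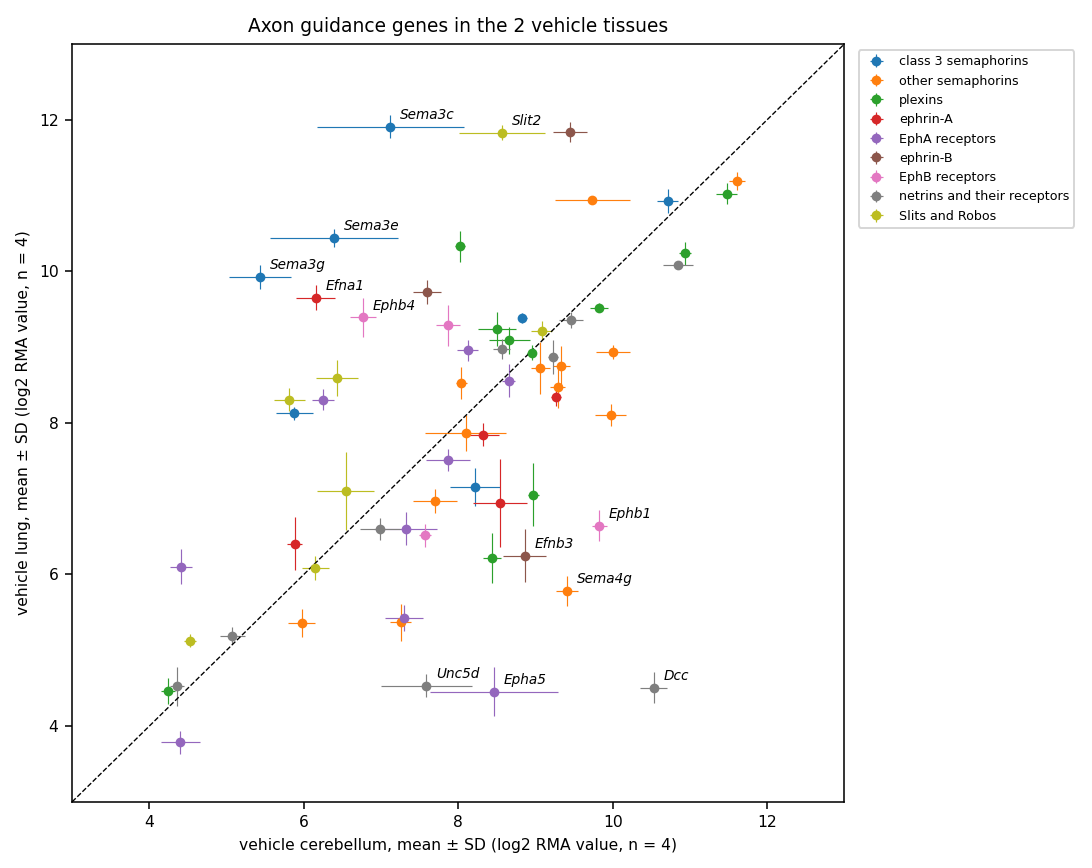
Mean level of each gene in vehicle cerebellum (x axis) and vehicle lung (y axis), as log2 RMA values with SD bars over 4 arrays, coloured by family; the dashed line marks equal values. Sema3c, Slit2, Sema3e and Sema3g lie far above the line, Dcc far below it, and the horizontal bars of Sema3c, Sema3e and Epha5 are long.

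The spread between arrays of the same group was uneven among these genes. In vehicle cerebella the median SD was 0.167 for the 67 genes and 0.149 for all genes, but it ran from 0.0532 to 0.951. The 6 genes with the largest SD within the cerebellar groups were Sema3c, Epha5, Sema3e, Unc5d, Slit2 and Sema5a, picked after their values were seen, and 98.1% to 99.7% of all genes had a smaller one. Sema3c measured 7.43, 5.72, 7.46 and 7.86 in vehicle and 8.20, 7.01, 7.56 and 5.89 in dexamethasone cerebella. Epha5 measured 8.85, 7.21, 8.87 and 8.90, and 9.49, 8.28, 8.97 and 7.0. Slit2 measured 8.93, 7.77, 8.62 and 8.95, and 9.25, 8.47, 8.99 and 7.87. For all 6 genes B79 was the lowest vehicle array and B52 the lowest dexamethasone array. B39 was the highest dexamethasone array, tied for Unc5d with B50 at a rounded value of 8.62. The lowest arrays were thus shared by secreted semaphorins, an Eph receptor, a netrin receptor and a Slit. Over all genes, B39 and B79 had the lowest correlation between cerebellar arrays, 0.977. They also had the lowest array weights of that organ, 0.451 and 0.590, while B52 had 1.02. The part of such array-wide differences in the spread of these 6 genes was not tested. The SD within groups went from 0.966 for Sema3c to 0.536 for Sema5a.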

How the data were processed

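Affymetrix arrays measured total RNA of 16 whole organs in 4 groups of 4. The authors deposited log2 values that RMA produced, per the submitters' processing notes; its version and settings were not stated in the sources used here. Of 45101 probe sets, 34945 were listed with 1 gene symbol, updated through the RefSeq table, and 18193 genes were represented by their probe set with the highest mean. RMA values of different genes are not comparable as amounts, and 4 arrays a group limit the precision.

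Each gene was fitted in limma 3.58.1 (R 4.3.3) with a mean per group and 12 residual degrees of freedom, without covariates, and p-values were adjusted by Benjamini-Hochberg over 18193 genes. Errors beside log2 changes are moderated standard errors. The fit was tested on simulated data. Every gene of the set called for dexamethasone or the difference between organs is named, with values of every array for up to 8 rises and 8 falls a comparison. For vehicle organs the 6 largest differences each way, the brightest gene of each family and Dcc are named. The genes and lists were chosen with earlier results of these data known, so their shares are descriptions. Co-receptors, effectors and cell type markers are described by counts. Alternatives covered probe sets, dim genes, normalization, array weights, Xist, tissues fitted apart and single arrays left out. Promoters came from RefSeq windows, GRCm38.p6.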

Additional observations from a re-analysis of the deposited data

Results flagged for a closer look

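Among the genes with values of every array, 7 of 60 groups held an array far from the other 3 by Dixon's criterion; chance gives about 1 group in 20. In dexamethasone lungs, B46 was low for Epha3 (9.32, the others 9.96 to 10.08) and for Slit2 (9.04, the others 10.52 to 10.8). B28 was low for Ephb4 (8.84, the others 9.06 to 9.08), and B31 was high for Unc5b (7.93, the others 7.66 to 7.7). In vehicle lungs, B19 was low for Robo2 (6.33, the others 7.27 to 7.42). In the cerebellum, B49 was low for Plxna2 in the dexamethasone group (11.26, the others 11.38 to 11.41), and B80 for Sema3b in the vehicle group (5.53, the others 5.95 to 6.03).

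The dexamethasone effect differed between lung and cerebellum for 20 genes, by limma's contrast of the effects themselves. As lung minus cerebellum on the log2 scale, the differences were -2.18 for Unc5c, -1.85 for Plxnc1, -1.83 for Robo2, -1.66 for Slit2, -1.60 for Unc5b, -1.20 for Ephb1, -1.18 for Efna2 and -1.08 for Sema6a. Smaller ones were -1.04 for Sema3g, -0.98 for Sema4c, -0.97 for Ntn1, -0.95 for Robo1, -0.92 for Sema6d, -0.92 for Epha10, -0.86 for Epha7, -0.81 for Unc5a, -0.76 for Efnb2 and -0.57 for Slit3. Above 0 were Efna1, at 0.89, and Sema3a, at 0.65.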

How the results depend on the processing

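In the lung, 19 of 28 calls remained in every setting and 0 of the 28 reversed; 28 calls became 22 to 29 with single arrays left out. In the cerebellum 3 calls, beside 4.8% of all genes, became 5 of 62 with dim genes left out (beside 8.16%), 5 with quantile normalization applied again (5.47%), 6 with its arrays fitted alone (3.96%) and 9 with array weights (9.34%). With single arrays left out they ran from 1 (without vehicle B79) to 5 (without dexamethasone B39 or B52). The 5 lung rises became 10 with every probe set on its own, where a gene counted if any of its probe sets was called. They became 3 with lung arrays fitted alone, 3 with Xist as a covariate, and 3 to 6 with single arrays left out. Differences between organs, 20 as reported, ran from 16 to 21. With all probe sets of a gene averaged, the log2 difference between vehicle organs reversed for Plxnc1 (-0.30 to 0.077), Robo1 (0.14 to -0.52) and Sema6d (-0.42 to 0.044); the cause was not tested. No paired analysis was possible because the groups share no replicate number. All arrays share 1 hybridization date, so no batch could be fitted.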
